A study of Mus musculus with 14 samples.

Results

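A set of 9 centrosome genes is described: *Pcnt*, *Cdk5rap2* and *Tubg1* of the pericentriolar material, *Pcm1* of the centriolar satellites, *Nin* and *Odf2* of the subdistal appendages, *Cep164* and *Fbf1* of the distal appendages, and *Cep162* of the distal centriole. They were chosen by symbol, with earlier results of these data known, and are 9 of the 55487 genes counted. All 9 were among the 16876 genes that passed the filter on low counts, and all 9 reach its minimum without the libraries labelled Cep120 KO.

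A centrosome is a pair of centrioles, made of microtubules, inside a matrix called the pericentriolar material, which anchors the gamma-tubulin complexes that start new microtubules. The older centriole carries subdistal appendages, which hold microtubules, and distal appendages, which dock it to the plasma membrane so that it can grow a primary cilium. Centriolar satellites are granules that move centrosome and cilium proteins to and from this site, and defects in cilia of kidney tubule cells are a known cause of cystic kidney disease.

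The study asked what changes in the ureteric bud, the epithelium that branches into the collecting ducts, when centrosomes are lost. The Hoxb7-Cre transgene, active in the ureteric bud and its descendants, deletes the targeted gene and also makes GFP, by which cells of embryonic kidneys were sorted for bulk RNA sequencing. The protocol gives E13.5 (embryonic day) for wild-type and Hoxb7-Cep120 mice and no separate day for the Pkd1 line. There were 14 libraries: 5 labelled Cep120 KO (KO libraries 2, 4, 5, 6 and 7) with 3 controls from that line, and 3 labelled Pkd1 KO with 3 controls from theirs. Cep120 is a protein of new centrioles, without which they do not form, and the Pkd1 product is a membrane protein of tubule cells and their cilia. The controls have the genotype label WT, but their titles call them heterozygous, so whether they carry 1 deleted allele is not settled by the labels. Nothing in the labels ties a library to an embryo, a litter or a pool, so the spread behind each p-value may be technical.

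Total counts were 16293837 to 23761736 in the KO libraries, 18200490 to 27475901 in the Cep120-line controls, 11347657 to 27967596 in the Pkd1 KO libraries and 22061677 to 23181220 in the Pkd1-line controls. Cep120 itself was not lower where it should be deleted, at 7.87 to 21.2 CPM (counts on the usual scale per library size, adjusted by TMM factors) in the libraries labelled Cep120 KO against 6.41 to 10.6 CPM in their controls (log2 fold change 0.83, SE 0.31, edgeR adjusted p = 0.0832). Which exons were deleted is not stated in the labels, so this checks the label only in part. Pkd1 had 2.39 to 2.68 CPM in Pkd1 KO libraries and 3.34 to 4.60 CPM in their controls, without overlap, a pattern found in 6.19% of all genes in that comparison, but did not pass the test (log2 fold change -0.65, SE 0.43, edgeR adjusted p = 1). Ureteric bud markers were present in every library, but not at like levels. The 10 markers summed to 1299, 1970, 2103, 689 and 973 CPM in KO libraries 2, 4, 5, 6 and 7, against 1306 to 1389 CPM in the Cep120-line controls. The sums were thus above every control in KO libraries 4 and 5 and below every control in 6 and 7. In KO library 2 the sum was just below the lowest control. Cdh1 of the epithelium had 105, 305, 338, 20.2 and 61.9 CPM in the same KO libraries, against 107 to 146 CPM in the controls. Hoxb7, another of the 10 markers, did not follow the sum. It had 99.5, 69.4, 76.3, 77.4 and 91.3 CPM in these KO libraries, against 69.7 to 93.6 CPM in the controls. KO libraries 4 to 7 stood apart from the other 10 libraries in ways that do not depend on these 9 genes. Their TMM factors were 1.15 to 1.32 against 0.862 to 0.966. The longest 10% of genes exceeded the shortest 10% by 1.00 to 1.35 (log2, relative to the mean of the controls), against -0.27 to 0.41 in the other 10. The same difference between high and low GC content was 0.41 to 1.22 against -0.16 to 0.13. Nephron progenitor markers, 7 genes from cells that neighbour the bud, summed to 769 and 587 CPM in KO libraries 6 and 7, against 31.4 to 36.5 CPM in KO libraries 2, 4 and 5 and 58.3 to 69.7 CPM in the Cep120-line controls. Six2, the defining marker of those cells, reached 127 CPM in KO libraries 6 and 7 and at most 1.53 CPM in the other 12. Not every marker of the list rose with it. Cited1 had 50.8 and 33.2 CPM in KO libraries 6 and 7, against 35.4 to 55.5 CPM in the Cep120-line controls. Leukocyte markers, 5 genes, summed to 2.36 to 10.6 CPM in the 5 KO libraries, against 26.0 to 319 CPM in the Cep120-line controls, without overlap. Neural markers, 4 genes with Sox10 at 0 in both groups, summed to 3.15 to 13.1 CPM in KO libraries 4 to 7 and 28.5 CPM in KO library 2, against 27.3 to 41.6 CPM in the controls. The sums of stroma, endothelium and erythroid markers overlapped between these groups. Mitochondrial genes took 2.15 to 3.61% of counts in KO libraries 4 to 7, against 3.36 to 5.69% in the other 10. Fits with length and GC offsets and a fit without KO libraries 6 and 7 are given with the results, and beyond these the part of length, GC content, the markers and the mitochondrial share was not tested. No label names a batch. All 4 libraries that stand apart carry the same genotype label, and no library of another label stands apart with them. KO library 2 carries that label too but is 1 of the other 10, with a TMM factor of 0.908, a length difference of -0.065 and a GC difference of -0.16. Within the 4 libraries, whatever sets them apart and the genotype cannot be told apart.

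In the 6 control libraries the 9 genes differed widely in level. On the per-length scale of the deposited TPM values, *Tubg1* was highest at 52.3 ± 5.20 TPM (mean ± SD, n = 6), followed by *Cdk5rap2* at 24.4 ± 7.66 TPM and *Odf2* at 11.6 ± 2.37 TPM. Most *Cdk5rap2* counts lay on a short form of 711 bases, with 52.6 to 88.0% in Cep120-line controls and 63.9 to 64.6% in Pkd1-line controls. The TPM level and rank of *Cdk5rap2* are therefore not those of its full-length form. *Cep162* had 2.11 ± 1.27 TPM and *Pcm1* 1.97 ± 0.497 TPM, and their ranges overlapped. The mean of *Cep162* stands for neither line, since it had 1.01 ± 0.609 TPM in Cep120-line controls and 3.21 ± 0.250 TPM in Pkd1-line controls (SD, n = 3 each). In the Cep120-line controls alone it came after *Pcm1* (1.79 ± 0.167 TPM) and *Cep164* (1.26 ± 0.791 TPM). *Cep164* (1.15 ± 0.546 TPM), *Pcnt* (0.742 ± 0.385 TPM), *Fbf1* (0.693 ± 0.430 TPM) and *Nin* (0.446 ± 0.233 TPM) overlapped with their neighbours in this order too. *Tubg1* did not overlap with *Cdk5rap2*, nor *Odf2* with *Cep162*, while the ranges of *Cdk5rap2* and *Odf2* met between 13.9 and 14.6 TPM. The low levels of *Pcnt*, *Fbf1* and *Nin* rest on few reads in some libraries, which limits the precision of their fold changes.

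In the libraries labelled Cep120 KO, 5 of the 9 genes were higher than in the Cep120-line controls: *Pcnt*, *Cdk5rap2*, *Pcm1*, *Fbf1* and *Cep162*. Over all genes tested, 8.4% were called higher and 14.7% were called in either direction (edgeR, adjusted p under 0.05 over all genes). At an unadjusted p under 0.05 there were 7 of the 9, against 33.7% of all genes. All 9 log2 fold changes were positive, from 0.13 to 3.55, with a median of 1.48 against 0.12 over all genes tested. Each KO library had its own level, however, and KO library 2 lay at or below the controls for most of these genes. Since whole sorted populations were sequenced, fewer cells of a type and less RNA per cell cannot be told apart.

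**Figure D1:**
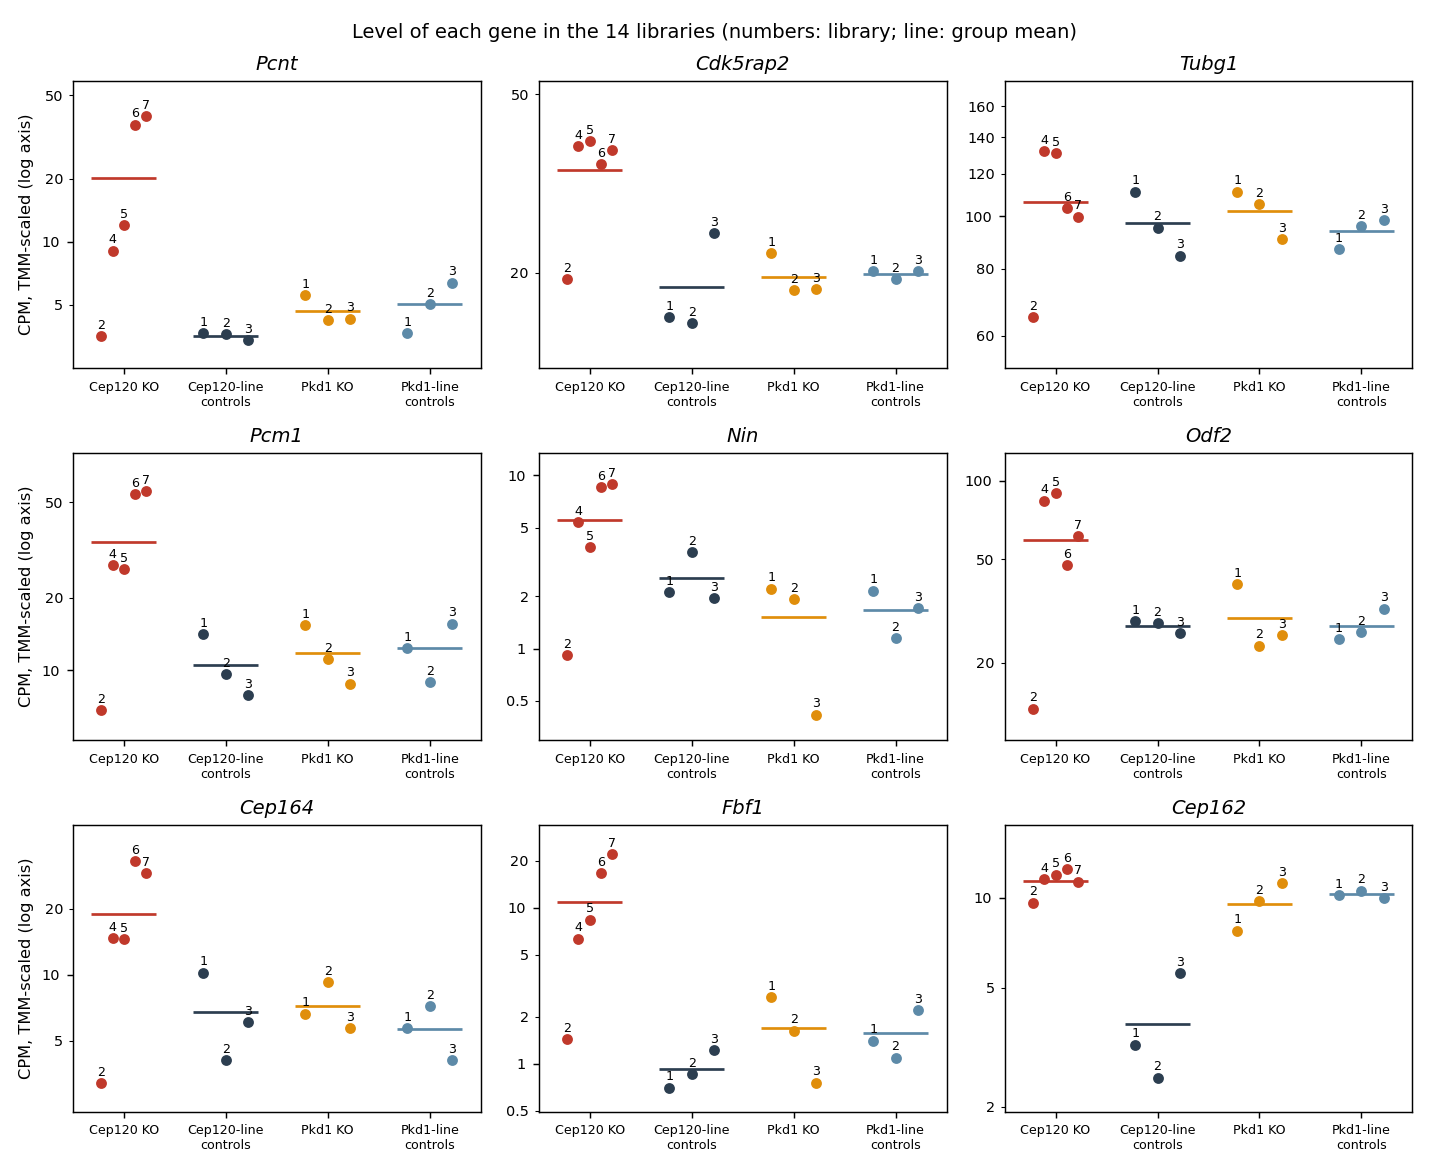
CPM scaled by TMM factors, on a log axis, of the 9 genes in the 14 libraries, with 1 point per library, the library number above it and a line at the group mean. KO libraries 4 to 7 lie above all Cep120-line controls for every gene except *Tubg1*, where the groups interleave, and for *Cep162* the Cep120-line controls lie below every other library.

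*Pcnt* encodes pericentrin, the large coiled-coil protein that organises the pericentriolar material. It had 3.54, 9.06, 12.0, 36.1 and 39.7 CPM in KO libraries 2, 4, 5, 6 and 7, against 3.64, 3.61 and 3.38 CPM in controls 1, 2 and 3. The estimated counts were 54, 170, 293, 1009 and 1248 in those KO libraries and 62, 88 and 55 in the controls. KO library 2 sat among the controls, KO libraries 4 and 5 were higher, and KO libraries 6 and 7 were higher again. The log2 fold change was 2.51 (SE 0.64, edgeR adjusted p = 0.0312), a ratio of 5.68, and without KO libraries 6 and 7 it was 1.21 (edgeR adjusted p = 0.065). *Pcnt* (chromosome 10, 76351263 to 76442786, minus strand, GRCm38) overlaps an antisense gene, 1700094J05Rik, and a protein-coding gene on its own strand, AC141477.1. The library kit does not mark strand, so reads of *Pcnt* and the antisense gene in shared sequence cannot be told apart. Strand would not separate *Pcnt* from AC141477.1 in any shared sequence either.

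*Cdk5rap2* encodes a partner of pericentrin that activates gamma-tubulin complexes. It had 19.4, 38.3, 39.3, 35.0 and 37.6 CPM in KO libraries 2, 4, 5, 6 and 7, against 16.0, 15.4 and 24.6 CPM in controls 1, 2 and 3. Here KO libraries 4 to 7 lay close together, and KO library 2 fell inside the range of the controls. Its fold change was 0.86 on the log2 scale (SE 0.24, edgeR adjusted p = 0.0341).

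*Tubg1* encodes gamma-tubulin, the subunit on which new microtubules start. It had 65.0, 132, 131, 104 and 99.8 CPM in KO libraries 2, 4, 5, 6 and 7, against 111, 95.2 and 84.5 CPM in controls 1, 2 and 3. The KO libraries thus lay on both sides of the controls, with KO library 2 lowest and KO libraries 4 and 5 highest. A log2 fold change of 0.13, with a 95% interval of -0.27 to 0.53, did not pass the test (edgeR adjusted p = 0.686). An alternative test, limma-voom, called it higher (0.41, limma-voom adjusted p = 0.0121). On the deposited TPM scale, KO libraries 4, 5, 6 and 7 lay above the controls, at 108, 107, 89.0 and 90.7 TPM against 44.1 to 53.8 TPM. KO library 2 lay below them at 35.8 TPM. TPM values hold no TMM factors, and the share of all genes with this pattern on the TPM scale was not determined. *Tubg1* is also the gene with the shortest transcript of the 9, at 1802 bases, which is the 24.5th percentile of the genes tested. The other 8 lay at the 71.9th to 99.0th percentile.

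*Pcm1* encodes the scaffold protein of the centriolar satellites. It had 6.82, 27.5, 26.3, 54.2 and 55.8 CPM in KO libraries 2, 4, 5, 6 and 7, against 14.1, 9.61 and 7.86 CPM in controls 1, 2 and 3. KO library 2 was below all 3 controls and the other 4 KO libraries were above them. The log2 fold change of 1.70 (SE 0.52) passed at an edgeR adjusted p of 0.0441, and without KO libraries 6 and 7 it was 0.94 (edgeR adjusted p = 0.17).

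The 2 genes of the subdistal appendages did not pass the test. *Nin* encodes ninein, which anchors microtubule ends, and had 0.918, 5.39, 3.86, 8.60 and 8.92 CPM in KO libraries 2, 4, 5, 6 and 7, against 2.11, 3.61 and 1.96 CPM in controls 1, 2 and 3. *Odf2* encodes outer dense fibre protein 2, on which both kinds of appendage depend, and had 13.3, 83.8, 89.5, 47.3 and 61.0 CPM in the same KO libraries, against 28.8, 28.4 and 26.0 CPM in the controls. For both, KO library 2 lay below every control and KO libraries 4 to 7 lay above every control. Their log2 fold changes were 1.11 (SE 0.63, edgeR adjusted p = 0.235) for *Nin* and 1.09 (SE 0.43, edgeR adjusted p = 0.0982) for *Odf2*. KO libraries 4 and 5 exceeded KO libraries 6 and 7 for *Odf2*, as for *Tubg1* and *Cdk5rap2*, while for *Pcnt*, *Pcm1*, *Nin*, *Cep164* and *Fbf1* the order was the opposite.

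*Cep164* encodes the distal appendage protein that recruits the kinase TTBK2 at the start of cilium growth. It had 3.21, 14.7, 14.5, 33.0 and 28.9 CPM in KO libraries 2, 4, 5, 6 and 7, against 10.2, 4.11 and 6.08 CPM in controls 1, 2 and 3. KO library 2 was again below every control and the other 4 above, and the log2 fold change of 1.48 (SE 0.56) did not pass (edgeR adjusted p = 0.0855). *Fbf1* encodes a distal appendage protein of the ciliary gate and changed most of the 9. It had 1.44, 6.35, 8.38, 16.6 and 22.0 CPM in the same KO libraries, from 22 to 691 estimated counts, against 0.705, 0.862 and 1.23 CPM in controls 1, 2 and 3, from 12 to 21. Every KO library was above every control, although KO library 2 was close to control 3. The log2 fold change was 3.55 (SE 0.75, edgeR adjusted p = 0.0290), a ratio of 11.7.

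*Cep162* encodes a microtubule-binding protein at the distal end of centrioles that is needed to assemble the transition zone at the base of the cilium. It had 9.64, 11.5, 11.9, 12.5 and 11.3 CPM in KO libraries 2, 4, 5, 6 and 7, against 3.23, 2.50 and 5.59 CPM in controls 1, 2 and 3. It was the gene with the tightest KO values and the only one of the 9 in which KO library 2 resembled the other KO libraries. On the log2 scale the fold change was 1.60 (SE 0.27, edgeR adjusted p = 0.0290). *Fbf1* and *Cep162* were the 2 genes of the 9 in which every KO library lay above every control, a pattern found in 6.41% of all genes tested.

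With the 9 genes read library by library, the median of their log2 differences from the average Cep120-line control was -0.57 in KO library 2, 1.33 in KO library 4, 1.36 in KO library 5, 1.78 in KO library 6 and 1.81 in KO library 7. The median over all genes tested stayed between -0.03 and 0.11 in the same 5 libraries. In KO library 2, 5 of the 9 genes were below all 3 controls, against 30.3% of all genes tested. Above them were 2 of the 9, against 26.3%. All 9 exceeded every control in KO libraries 4 and 5, and 8 did so in KO libraries 6 and 7. Over all genes tested, 26.3 to 41.6% exceeded every control in a given KO library.

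**Figure D2:**
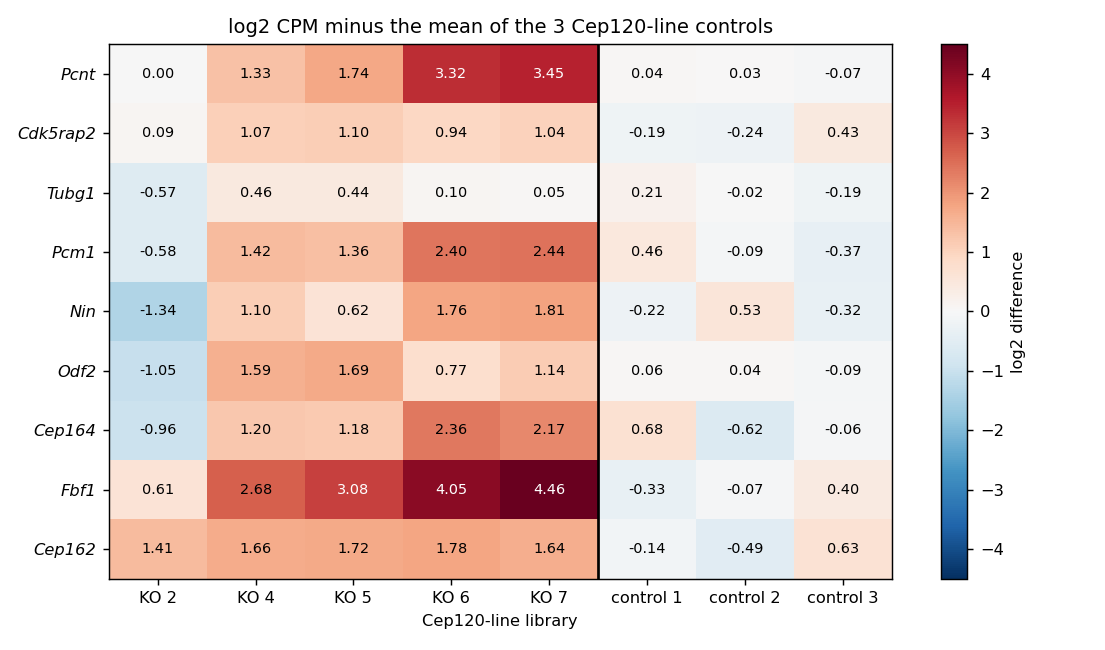
log2 CPM of each gene in the 8 Cep120-line libraries, relative to the average of the 3 controls, with KO libraries on the left and controls on the right. KO library 2 is negative for 5 genes and near 0 for *Pcnt*, while KO libraries 6 and 7 reach 3.32 and 3.45 for *Pcnt* and 4.05 and 4.46 for *Fbf1*.

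The number of genes called depended on single libraries and on the treatment of length and GC content. Without KO library 2, 7 of the 9 were called higher, against 19.2% of all genes, and *Odf2* (1.34, edgeR adjusted p = 0.00125) and *Cep164* (1.75, edgeR adjusted p = 0.0045) joined the 5. Without KO library 7 none was called, against 0.0303% of all genes. Leaving out control 1 or control 2 also ended every call (0.00558% and 0.0169% of all genes called higher), and without control 3 only *Cep162* was called (1.99, edgeR adjusted p = 0.0316), against 0.00559%. Without KO library 6, *Fbf1* and *Cep162* were called, against 1.18%. *Pcnt*, *Fbf1* and *Cep162* were the 3 called without KO library 4 (5.99% of all genes) and without KO library 5 (5.11%). They were also the 3 called without Pkd1 KO library 1 (4.32%), 2 (4.6%) or 3 (4.79%), and without Pkd1-line control 2 (4.36%) or 3 (4.69%), which enter through the shared spread. A fit of the 8 Cep120-line libraries alone called none of the 9 and 0% of all genes. KO libraries 6 and 7 had the highest sums of nephron progenitor markers. Without them, *Fbf1* (2.53, edgeR adjusted p = 0.0424) and *Cep162* (1.56, edgeR adjusted p = 0.0272) were still called (3.44% of all genes). The other 7 log2 fold changes were 0.17 to 1.21. Without KO libraries 4 and 5, *Pcnt*, *Fbf1* and *Cep162* were called, against 8.6%. With KO library 2 as the only KO library none was called, against 0.0111%, its spread then being assumed like that of the other groups. DESeq2 called 6 of the 9 (14.8% of all genes) and limma-voom 8 (21.4%). With offsets that remove trends of transcript length and GC content in each library, none of the 9 was called when each gene was given its longest transcript (0.213% of all genes called higher). With the mean over a gene's transcripts, a setting chosen after seeing the data, 2 were called (0.776% of all genes), namely *Fbf1* at 3.05 (edgeR adjusted p = 0.0449) and *Cep162* at 1.36 (edgeR adjusted p = 0.0378). *Cdk5rap2*, which has the longest transcript of the 9 at 11847 bases, had a log2 fold change of 0.01 under the first of these corrections and 0.57 under the second.

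**Figure D3:**
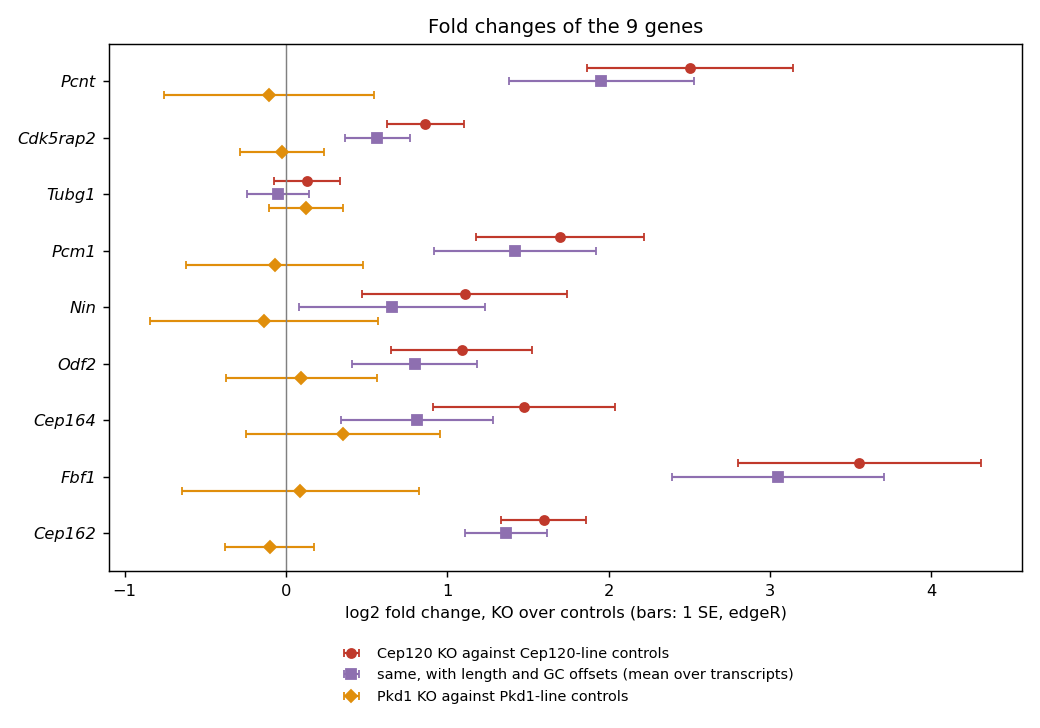
log2 fold changes with bars of 1 SE (edgeR) for the 9 genes: libraries labelled Cep120 KO over Cep120-line controls, the same comparison with length and GC offsets from the mean over transcripts, and Pkd1 KO over Pkd1-line controls. The first 2 sets lie right of 0 except for *Tubg1*, which is 0.13 and -0.05, and the Pkd1 set scatters between -0.13 and 0.35.

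None of the 9 genes was called between Pkd1 KO libraries and their controls, and none at an unadjusted p under 0.05, against 0% of all genes called and 1.53% at the unadjusted level (edgeR). DESeq2 and limma-voom called none of the 9 either, and the groups overlapped for all 9, whereas 4.88% of all genes were higher and 6.19% lower without overlap. The log2 fold changes ran from -0.13 for *Nin* to 0.35 for *Cep164*, with SEs from 0.23 to 0.71 and every edgeR adjusted p at 1. *Fbf1*, the most changed gene in the other line, had 2.68, 1.63 and 0.761 CPM in Pkd1 KO libraries 1, 2 and 3, against 1.41, 1.10 and 2.21 CPM in their controls. *Pcnt* had 5.55, 4.22 and 4.29 CPM in these Pkd1 KO libraries and 3.66, 5.03 and 6.36 CPM in the controls. The pericentriolar gene *Cdk5rap2* was at 18.3 to 22.1 CPM in Pkd1 KO libraries and 19.4 to 20.2 CPM in their controls, and *Tubg1* at 90.6 to 111 CPM and 86.9 to 98.4 CPM in the same groups. *Pcm1* had 8.78 to 15.4 CPM in Pkd1 KO libraries and 8.92 to 15.6 CPM in their controls. Appendage genes were as close, with *Odf2* at 23.2 to 40.0 CPM in Pkd1 KO libraries against 24.6 to 32.2 CPM in the controls, and *Cep164* at 5.74 to 9.27 CPM against 4.11 to 7.18 CPM. *Nin* ranged from 0.415 to 2.22 CPM in Pkd1 KO libraries and from 1.14 to 2.16 CPM in their controls. The 95% intervals of the log2 fold change were -1.35 to 1.53 for *Fbf1*, -1.38 to 1.17 for *Pcnt*, -0.64 to 0.44 for *Cep162* and -0.32 to 0.57 for *Tubg1*, so changes of the size seen in the labelled Cep120 KO lie outside the interval for the first 3.

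Whether the effects in the lines differ was tested directly, as the Cep120 effect minus the Pkd1 effect. None of the 9 passed, and 0% of all genes did (edgeR, smallest adjusted p of the 9 = 0.176). At an unadjusted p under 0.05, 5 of the 9 differed, against 20.4% of all genes. The differences were largest for *Fbf1* (3.46, SE 1.02), *Pcnt* (2.61, SE 0.89), *Pcm1* (1.77, SE 0.74) and *Cep162* (1.70, SE 0.38), and smallest for *Tubg1* (0.01, SE 0.31). DESeq2 called *Fbf1* (adjusted p = 0.0252) and *Cep162* (adjusted p = 0.00219), against 4.28% of all genes. Limma-voom called 6 of the 9, against 26% of all genes, and without KO library 2 edgeR called 6, against 18.7%.

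The control groups were compared because they come from different lines. None of the 9 was called, against 0.124% of all genes (edgeR), and 1 had an unadjusted p under 0.05, against 4.89%. *Cep162* had 3.23, 2.50 and 5.59 CPM in Cep120-line controls 1, 2 and 3 and 10.2, 10.6 and 9.97 CPM in Pkd1-line controls 1, 2 and 3. Its log2 difference of -1.45 (SE 0.28) missed the threshold (edgeR adjusted p = 0.0910). It passed without Cep120-line control 3 (-1.84, edgeR adjusted p = 0.0198), with DESeq2 (adjusted p = 0.000108) and with limma-voom (adjusted p = 0.00339), which called 0.0726%, 0.498% and 0.776% of all genes. *Pcnt* and *Cep162* were the 2 genes of the 9 in which every Cep120-line control lay below every Pkd1-line control, a pattern found in 9.99% of all genes. For *Cep162*, the 5 KO libraries (9.64 to 12.5 CPM) therefore overlapped with the Pkd1 KO libraries (7.77 to 11.2 CPM) and with the Pkd1-line controls. The 3 Cep120-line controls alone were low, and both comparisons use them.

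The transcripts behind *Cep162* differed more sharply than the gene total. The deposited transcript counts split the gene mainly between a full-length protein-coding transcript of 27 exons and 7685 bases and one annotated as a retained intron. The retained-intron transcript is a single block of 2996 bases (chr9:87224963-87227958, minus strand, GRCm38) that spans coding exons 12 and 13 of the full-length one, with 536 exonic and 2460 intronic bases. The sequences where the transcripts part are given because they are what tells the forms apart. Capitals mark the last 60 bases of exon 12, which both transcripts share. In the retained-intron transcript the sequence then runs on into the intron (chr9:87227094-87227213, minus strand), and in the full-length one it continues with exon 13, the intron being left out (the bases shown lie within chr9:87225881-87227213), both from the GENCODE M21 annotation of GRCm38.
Cep162 retained intron: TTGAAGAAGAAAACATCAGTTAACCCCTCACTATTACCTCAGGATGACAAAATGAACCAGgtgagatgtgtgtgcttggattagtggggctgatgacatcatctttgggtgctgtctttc
Cep162 full length: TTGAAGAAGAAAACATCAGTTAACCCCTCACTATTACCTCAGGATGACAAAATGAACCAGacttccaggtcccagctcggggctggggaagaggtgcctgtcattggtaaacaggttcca

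The full-length *Cep162* transcript had 32, 208, 272, 272 and 290 estimated counts in KO libraries 2, 4, 5, 6 and 7, against 19, 17 and 4 in Cep120-line controls 1, 2 and 3. The retained-intron transcript had 95, 3, 3, 58 and 49 in the same KO libraries and 26, 44 and 81 in the controls. KO library 2 resembled the controls in this split, with 21.6% of the gene's counts on the full-length form against 4.39 to 34.1% in the controls, while KO libraries 4 to 7 had 78.2 to 96.2%. It reached 9.24 to 11.2 CPM in KO libraries 4 to 7 and 0.245 to 2.27 CPM in the other 10 libraries. The Pkd1 line was like the controls, with 25, 37 and 17 full-length counts in Pkd1 KO libraries and 19, 40 and 46 in Pkd1-line controls. It had more of the retained-intron transcript, with 59, 219 and 140 counts in Pkd1 KO libraries and 186, 191 and 173 in Pkd1-line controls, which made up most of the *Cep162* total in that line. KO library 2 and KO libraries 4 to 7, alike in their *Cep162* totals, thus differed in the transcripts that made them up. No test was run on transcripts, whose counts are the authors' estimates of how shared reads divide.

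**Figure D4:**
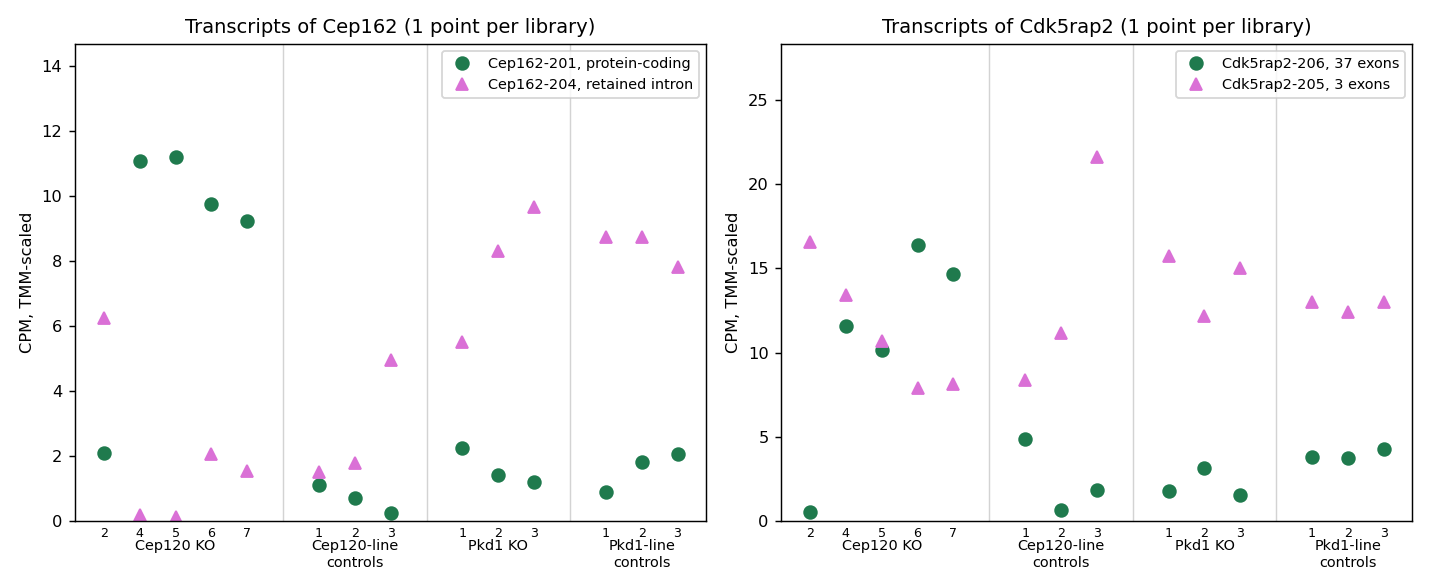
CPM scaled by TMM factors of 2 transcripts each of *Cep162* and *Cdk5rap2* in the 14 libraries, 1 point per transcript and library, with library numbers under the axis. The long transcript (circles) is above 9 CPM in KO libraries 4 to 7 for both genes and below 5 CPM in the other 10 libraries, including KO library 2, whereas the short or intron-containing transcript (triangles) does not rise with it.

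*Cdk5rap2* showed the same contrast between a long and a short transcript. The full-length form, with 37 exons and 11847 bases, had 9, 217, 247, 458 and 460 estimated counts in KO libraries 2, 4, 5, 6 and 7, against 83, 16 and 30 in Cep120-line controls 1, 2 and 3. A short form, with 3 exons and 711 bases, shares exons 27 and 28 with it and ends in 490 bases of its own (chr4:70249009-70249498, GRCm38). It had 253, 251, 261, 222 and 255 counts in the KO libraries and 143, 272 and 352 in the controls, with no separation of the groups. The full-length form held 2.91% of the gene's counts in KO library 2 and 25.8 to 46.9% in KO libraries 4 to 7, against 4.16 to 30.6% in the controls. In the Pkd1 line it held 8.05 to 17.2% in Pkd1 KO libraries and 18.9 to 21.4% in Pkd1-line controls. Only 5 of the 6 annotated transcripts of *Cdk5rap2* are in the transcript table used here, and they add up to 53.2 to 96.1% of the gene's count.

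Among the other genes, *Pcm1* had most counts on a protein-coding transcript of 38 exons, with 73.7 to 97.8% in the KO libraries and 63.2 to 93.0% in the Cep120-line controls. Its retained-intron transcript held 0 to 13.7% in the KO libraries and 7.04 to 36.8% in the controls, the highest being control 3. For *Pcnt*, a transcript of 42 exons held 83.3 to 100% of the counts in the KO libraries and 89.0 to 100% in the Cep120-line controls. For *Cep164*, a transcript of 30 exons held 88.9 to 98.2% in the KO libraries and 96.0 to 98.5% in the controls. For *Tubg1*, 1 transcript of 11 exons held 99.5 to 100% in the KO libraries and 99.5 to 99.8% in the controls. *Fbf1* counts were divided between a form of 30 exons and one of 29 exons. KO libraries 4 and 5 had 114 and 163 counts of the 30-exon form and 0 of the 29-exon form, while KO libraries 6 and 7 had 0 and 92 of the 30-exon form and 265 and 421 of the 29-exon form. The division between them is an estimate. Over all listed transcripts, those annotated as retained introns took 4.08 to 6.62% of counts in the KO libraries and 3.61 to 3.98% in the Cep120-line controls, and the share moved with KO libraries 6 and 7, at 6.62 and 6.43%. Its part in the results was not tested.

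The wider centrosome was read through 55 related genes in 5 lists, all of which were tested. Of these, 17 were higher and 0 lower in the labelled Cep120 KO than in the controls (edgeR, against 8.4% of all genes higher and 6.26% lower), with a median log2 fold change of 1.06. No test was run between lists. *Cntln* of the linker list, which was called, passed the filter on low counts only with the KO libraries counted. So did *Ccdc13* of the satellite list and *Ccdc68* of the subdistal list, which were not called. All are part of the counts and medians of their lists, which are to that extent selected for high KO values. Of 11 subdistal appendage genes 7 were higher, with a median of 1.59, and of 7 distal appendage genes 4 were higher, with a median of 1.55. Of 6 linker genes, which tie the centrioles together, 2 were higher (median 1.50), and of 18 satellite genes 3 were higher (median 1.21). Of 13 genes of the pericentriolar scaffold and the gamma-tubulin ring complex, 1 was higher and the median was 0.15, near the 0.12 of all genes. Like *Tubg1* itself, the ring complex genes *Tubgcp2* (0.15), *Tubgcp3* (0.25), *Tubgcp4* (0.02), *Tubgcp5* (0.55) and *Tubgcp6* (0.39) did not pass. *Tubg2* of the same list did not pass either, at a larger but imprecise 1.26 (SE 1.01, edgeR adjusted p = 0.403). These counts rest on single libraries as those of the 9 genes do. None of the 55 was called without KO library 7, without any 1 of the 3 Cep120-line controls or in the fit of the 8 libraries alone, and 2 were called without KO library 6. Without KO library 2, 31 were called higher and 2 lower, against 19.2% of all genes higher. Without KO libraries 6 and 7 the called genes were 4 of the subdistal list, 1 of the satellite list and 0 of the other 3, against 3.44% of all genes. With length and GC offsets 0 were called higher and 1 lower, against 0.213% of all genes higher, and with offsets from the mean over transcripts 1 was higher, against 0.776%.

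**Figure D5:**
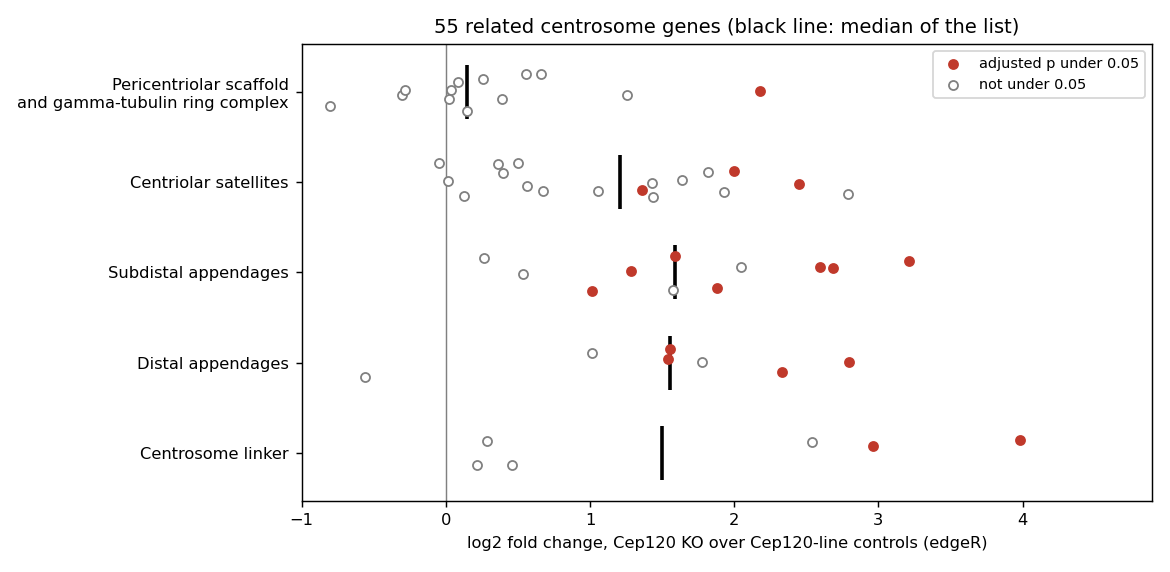
log2 fold change of 55 related centrosome genes, libraries labelled Cep120 KO over Cep120-line controls, by list, with filled points for genes with an edgeR adjusted p under 0.05 and a black line at the median of each list. The 13 scaffold and ring complex genes run from -0.80 to 2.18 with a median of 0.15, and the other 4 lists have medians of 1.21 to 1.59. The points and medians include *Cntln*, *Ccdc13* and *Ccdc68*, which passed the filter on low counts only with the KO libraries counted.

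In the scaffold list the gene that rose was *Akap9*, which encodes a large scaffold protein of the centrosome and Golgi (log2 fold change 2.18, SE 0.61, edgeR adjusted p = 0.0359), a call lost when any 1 of the Pkd1-line libraries, which enter through the shared spread, is left out. Among the subdistal appendage genes, *Cntrl*, encoding centriolin, changed by 2.60 (SE 0.57) and *Cep170* by 1.88 (SE 0.42), both at an edgeR adjusted p of 0.0290. *Cntrl* had 9.18, 16.0, 17.4, 65.0 and 53.7 CPM in KO libraries 2, 4, 5, 6 and 7, against 7.05, 4.56 and 4.42 CPM in controls 1, 2 and 3. *Cep170* had 3.34 CPM in KO library 2, within its controls at 2.88 to 4.15 CPM, and 14.4 to 16.4 CPM in KO libraries 4 to 7. Of the distal appendage genes, *Cep83*, on which assembly of the appendage depends, changed by 1.54 (SE 0.39, edgeR adjusted p = 0.0312) and *Ankrd26* by 2.33 (SE 0.63, edgeR adjusted p = 0.0326). Among the satellite genes, *Bbs4*, a subunit of the BBSome that carries cargo in cilia, changed by 2.0 (SE 0.42, edgeR adjusted p = 0.0290) and *Spag5*, encoding the spindle protein astrin, by 1.36 (SE 0.36, edgeR adjusted p = 0.0319). Of the linker genes, *Cep250*, encoding the linker protein C-Nap1, changed by 2.97 (SE 0.78, edgeR adjusted p = 0.0318). The other called, *Cntln*, had 0.721 to 6.45 CPM in the KO libraries, against 0.117 to 0.246 CPM in the controls, which are 11 to 180 counts against 2 to 4. It reached the minimum of the filter in 5 KO libraries and 1 other. It could thus be tested only because it was high in the KO libraries, and its fold change appears only as a point in the figure. *Ccdc13* and *Ccdc68*, named after their values were seen, also passed the filter only with the KO libraries counted, and neither was called. KO library 2 lay within the range of the controls for *Akap9*, *Ankrd26*, *Bbs4*, *Spag5* and *Cep250*, as for *Cep170*. For *Cep83* it lay above them, at 3.93 CPM against 2.76 to 3.41 CPM, as it did for *Cntrl* and *Cntln*. No gene of the 5 lists was called in Pkd1 KO libraries (edgeR).

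Promoter windows of RefSeq (250 bases before to 50 after the start of a transcript, GRCm38.p6) were found for 7 of the 9 genes, in 12 windows. They were searched on both strands for the CCAAT box (CCAAT), bound by NF-Y, for the cell cycle homology region (TTTGAA or TTCGAA), found in cell cycle genes, and for GTTGCC, a part of the X-box, the motif of the RFX factors of cilium genes. A CCAAT was present in 8 of the 12 windows, in 5 of the 7 genes, against 37.4% of all 32851 windows. The homology region was in 7 windows, in 5 genes, against 19.2% of all windows. The X-box part was in 1 window, against 12.5%. Windows of *Odf2* overlap each other, and the same CCAAT and the same homology region are counted in several of them. The shares over all windows are per window and have no counterpart per gene here. The median GC content was 64.7% in these 12 windows and 52.7% in all. Shown are the windows of *Fbf1* and *Cep162*, in which every KO library exceeded every control, and of *Cep164*, the 1 window with all 3 motifs, with matches in capitals, each given 5′ to 3′ on the strand of the gene. *Fbf1* is at chr11:116168129-116168428, *Cep162* at chr9:87255483-87255782 and *Cep164* at chr9:45828614-45828913, all on the minus strand.
Fbf1 promoter: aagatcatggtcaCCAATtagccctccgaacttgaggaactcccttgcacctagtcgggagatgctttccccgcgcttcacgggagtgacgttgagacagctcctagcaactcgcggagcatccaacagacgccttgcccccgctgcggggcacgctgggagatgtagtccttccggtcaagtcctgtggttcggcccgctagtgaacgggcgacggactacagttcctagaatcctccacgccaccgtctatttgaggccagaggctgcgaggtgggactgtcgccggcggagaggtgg
Cep162 promoter: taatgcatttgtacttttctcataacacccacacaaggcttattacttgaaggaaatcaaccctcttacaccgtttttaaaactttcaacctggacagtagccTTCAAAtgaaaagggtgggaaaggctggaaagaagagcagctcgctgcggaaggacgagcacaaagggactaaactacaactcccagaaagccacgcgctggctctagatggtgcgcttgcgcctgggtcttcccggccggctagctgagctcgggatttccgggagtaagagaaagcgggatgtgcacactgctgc
Cep164 promoter: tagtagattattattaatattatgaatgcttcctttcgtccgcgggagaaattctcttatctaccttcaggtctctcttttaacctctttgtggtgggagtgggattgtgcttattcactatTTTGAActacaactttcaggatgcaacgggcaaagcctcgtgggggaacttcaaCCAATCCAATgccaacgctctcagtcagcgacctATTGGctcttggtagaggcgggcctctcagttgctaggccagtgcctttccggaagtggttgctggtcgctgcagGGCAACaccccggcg

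The *Fbf1* window has 1 CCAAT and none of the other motifs, and the *Cep162* window has 1 homology region and none of the others. The *Cep164* window has 3 CCAAT matches, 1 homology region and 1 X-box part. *Fbf1* and *Cep162* thus share none of the 3 motifs in these windows, which says nothing of sites elsewhere.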

How the data were processed

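Bulk RNA-seq libraries of GFP-sorted embryonic mouse kidney cells were grouped by title and genotype label. The values tested are expected counts per gene, deposited by the authors without normalization and rounded here (88.4 to 91.6% were whole). DRAGEN and mm9 are named in the submitters' processing notes; the annotation and counting step are not stated there. The authors also deposited CPM, TPM (per transcript length) and log2 CPM with a small constant. TPM served for levels, and the log2 values for an alternative test. CPM in the text were computed anew from the counts with TMM factors, since the deposited CPM are scaled by library total only. Transcript counts deposited by the authors were read for the 9 genes. Of 55774 lines, 287 repeated a gene with the same counts and were dropped. Counts hold no molecular identifiers.

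Genes were filtered with filterByExpr (minimum count 10), which left 16876, and tested in R 4.3.3 with edgeR 4.0.16 (quasi-likelihood, 4 group means, 14 libraries, 10 residual degrees of freedom). Calls used an adjusted p (Benjamini-Hochberg, all genes tested) under 0.05. SE is the fold change over the root of F, and 95% intervals are normal ones. Alternatives used limma 3.58.1 and DESeq2 1.42.0, other scalings and filters, length and GC offsets, fewer libraries, and the replicate number as a block. Same-numbered libraries did not deviate together (correlations of -0.12 to 0.05), so the numbers were not taken as pairs. On data simulated for the Cep120 comparison over 15758 genes, 70 of 100 genes changed 2-fold and 100 of 100 changed 4-fold were recovered, with 6 false calls. The simulation gave all genes and libraries the same fixed dispersion and changed only genes above a minimum mean count. It held no differences between libraries in length, GC content or cell types. Its rates therefore need not hold for the real libraries, which differ in these ways.

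Positions, lengths, exons and transcript sequences were looked up by identifier in GENCODE M21 (GRCm38), which holds 55141 of the 55487 genes, although the notes name mm9. RefSeq promoters were matched by symbol. The genes, related lists and motifs were chosen with earlier results of these data known. The text names the 9 genes, the 2 called genes with the smallest adjusted p of each related list (or 1 where only 1 was called), and for each of the 9 the protein-coding gene with the nearest profile. The ring complex genes *Tubgcp2* to *Tubgcp6*, and *Tubg2*, were added after their values were seen. All columns of per-sample values were mapped to samples.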

Additional observations from a re-analysis of the deposited data

Results flagged for a closer look

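*Cdk5rap2* had 19.4 CPM in KO library 2, and the other 4 KO libraries had 35.0 to 39.3 CPM. The gap to the nearest of the others was 0.784 of the whole range of the group, above Dixon's critical value of 0.71 for 5 samples. Each of the 9 genes was examined in the libraries labelled Cep120 KO, and chance alone flags about 1 in 20 such groups. Groups of 3 libraries were not examined. KO library 2 was also the lowest of the 5 for the other 8 genes.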

How the results depend on the processing

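Of the 9 genes, the number called in the labelled Cep120 KO was 0 with length and GC offsets, 2 with offsets from the mean over transcripts, 8 with limma-voom, 0 in a separate fit of the 8 libraries, 2 without KO libraries 6 and 7, 3 without KO libraries 4 and 5, 0 with KO library 2 alone and 3 with KO libraries 4 and 5 summed. Leaving out 1 library at a time gave 0 to 7, and other scaling, filtering, DESeq2 and limma-trend gave 4 to 6. Over these alternatives *Cep162* was called in 20 of 26, *Fbf1* in 19, *Pcnt* in 16, *Cdk5rap2* in 7 and *Pcm1* in 5. *Cep164* was called in 3, *Odf2* in 2, *Tubg1* in 1 and *Nin* in 0. For the difference between the lines, DESeq2 called 2 and limma-voom 6, and single libraries left out gave 0 to 6. Between the control groups DESeq2 called 1 and limma-voom 1, and single libraries left out gave 0 to 1. The median over all genes was 0.12, and 0.45 with limma-trend, -0.03 and 0.01 with the offsets.

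With KO library 2 alone, signs turned in the labelled Cep120 KO for *Pcm1* (-0.60), *Tubg1* (-0.56), *Nin* (-1.46), *Odf2* (-1.04), *Cep164* (-1.05), *Akap9* (-0.50), *Spag5* (-0.039), *Ankrd26* (-0.10) and *Cep170* (-0.089), and in the difference between lines for *Pcm1* (-0.53), *Tubg1* (-0.68), *Nin* (-1.33), *Odf2* (-1.13) and *Cep164* (-1.41). *Tubg1*, near 0, also turned in the labelled Cep120 KO with both offsets (-0.057 and -0.046) and without KO libraries 4 and 5 (-0.11). In the difference it turned with RLE factors (-0.023), DESeq2 (-0.023), both offsets (-0.22 and -0.20), without KO libraries 4 and 5 (-0.24) and with these summed (-0.079). With offsets the difference was -0.014 for *Cdk5rap2* and -0.12 for *Cep164*. In Pkd1 KO the sign turned for *Cdk5rap2* with offsets (0.021), *Pcm1* with limma-voom (0.062) and *Fbf1* with limma-trend (-0.046). Between control groups it turned for *Cdk5rap2* with offsets (0.20 and 0.073), for *Tubg1* with offsets (-0.016) and limma-trend (-0.079), and for *Odf2* without the filter (-0.00026), with limma-trend (-0.11) and in a separate fit (-0.014). The cause was not tested.

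With single libraries left out, log2 values that changed sign ran in Pkd1 KO from -0.12 to 0.021 for *Cdk5rap2*, -0.23 to 0.027 for *Cep162*, -0.37 to 0.44 for *Fbf1*, -0.47 to 0.31 for *Nin*, -0.18 to 0.24 for *Odf2*, -0.30 to 0.14 for *Pcm1* and -0.28 to 0.10 for *Pcnt*. Between control groups they ran from -0.34 to 0.023 for *Cdk5rap2*, -0.16 to 0.52 for *Cep164*, -0.082 to 0.13 for *Odf2* and -0.062 to 0.14 for *Tubg1*, and in the difference from -0.085 to 0.14 for *Tubg1*.

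With the replicate block, 0 of the 9 genes were called in Pkd1 KO and 0 between control groups, also with offsets. The replicate block gave -0.0046 for *Odf2* between control groups, and with offsets 0.13 for *Cdk5rap2* and -0.022 for *Tubg1*. No paired analysis was possible because, in the labelled Cep120 KO comparison, KO libraries share only the number 2 with the controls. Low counts of *Nin*, *Fbf1* and *Pcnt* limit their precision, and no setting separates library from genotype.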

Other observations

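*Pkd1*, the gene deleted in the other line, was called higher in the libraries labelled Cep120 KO, with a log2 fold change of 1.42 (SE 0.39, edgeR adjusted p = 0.0345). Of all genes tested, 8.4% were called higher in this comparison. The groups overlapped, at 3.61 to 15.6 CPM in the KO libraries and 3.35 to 5.89 CPM in the Cep120-line controls. How this call depends on single libraries, transcript length or GC content was not tested.

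For each of the 9 genes the protein-coding gene with the nearest profile was found among 9638 with a mean of at least 5 CPM. Likeness was the mean absolute difference of log2 CPM over the 14 libraries, after centring on the mean of the 6 controls. *Tubg1* was nearest to *Sf3a3* (0.08), *Cdk5rap2* to *Lsg1* (0.12), *Pcm1* to *Eif3a* (0.14), *Odf2* to *Myo18a* (0.19) and *Pcnt* to *Srsf4* (0.20). The profiles of *Cep164* and *Ankrd11* (0.27), *Cep162* and *Gm49359* (0.29), *Nin* and *Kdm4b* (0.37), and *Fbf1* and *Golga4* (0.39) were less alike.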
